A study of Mus musculus with 8 samples.

Results

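Oxidative phosphorylation genes were examined in CD11c-positive splenocytes of 7-week-old female C57BL/6 and B6.SLE123 mice. Members were the rows of the deposited count table whose symbol begins with Nduf followed by a, b, c, s or v, with Uqcr, Cox4 to Cox8, Atp5, or Sdh followed by a, b, c or d, together with all rows that begin with mt-. Cox6a2, the muscle form of a cytochrome c oxidase subunit, was left out. This gave 106 of the 13786 protein-coding genes in the table, of which 93 are encoded in the nucleus and 13 in mitochondrial DNA. The nuclear members comprised 46 genes of complex I, 8 of complex II, 8 of complex III, 14 of complex IV and 17 of complex V. Complexes were assigned by the beginning of the symbol alone, so Ndufa4, for example, was counted in complex I by its name. Of the 93, 80 are subunits and 13 are assembly factors or related proteins that share the naming, such as Ndufaf2.

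Each strain was represented by 4 mice, with 1 RNA library per mouse and no treatment. B6.SLE123 is a C57BL/6 line that carries the Sle1, Sle2 and Sle3 intervals, on chromosomes 1, 4 and 7, from a lupus-prone strain, so genes inside those intervals derive from that strain. Both strains were bought from The Jackson Laboratory. The cells were selected on CD11c, the product of Itgax, which dendritic cells carry but which some macrophages and B cells also carry. Strain was taken from the sample names, since the genotype labels run through a series of numbered names.

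Oxidative phosphorylation couples the transfer of electrons to the making of ATP in the inner mitochondrial membrane. Complex I takes electrons from NADH and complex II from succinate, both pass them through ubiquinone to complex III, and complex IV hands them from cytochrome c to oxygen. The proton gradient that results drives complex V, the ATP synthase. Complex II is built only from nuclear genes, whereas the other complexes combine nuclear subunits with subunits encoded in mitochondrial DNA. Dendritic cells and macrophages are known to shift between glycolysis and this pathway as they become activated.

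The 8 libraries held between 25563070 and 37367094 counts. The table lists genes whose larger median count between the strains was at least 5. A gene is called different when its adjusted p is below 0.05 in edgeR (quasi-likelihood F test, adjusted by Benjamini-Hochberg over all 13786 genes), and log2 fold changes are B6.SLE123 over C57BL/6. At that threshold 53.4% of all genes were called, with 26.7% higher and 26.6% lower in B6.SLE123 mice, and 48.9% had values that did not overlap between the strains. The cell content of the preparations differed too. All 9 markers of red pulp macrophages were lower in B6.SLE123 mice, and their summed level was between 10300 and 12900 in C57BL/6 mice, as counts scaled to library size (CPM), but between 1450 and 2860 in B6.SLE123 mice. Of 8 erythroid markers measured, 7 were lower, whereas all 17 proliferation genes and all 6 shared dendritic cell markers were higher. Among 7 type 1 conventional dendritic cell markers 5 were higher and 1, Batf3, was lower. In these lists only the erythroid markers Slc4a1 and Epb42 were at 0 counts in at least 1 mouse. In bulk RNA, fewer cells of a type and less RNA per cell cannot be told apart, and the part of cell content in the differences below was not tested.

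Among the 106 members, 36 were called, or 34.0%, which is below the 53.4% of all genes. The called members comprised 23 that were higher and 13 that were lower in B6.SLE123 mice. Values of the strains did not overlap for 33 members, or 31.1%. Most changes were small. The median size of a log2 fold change was 0.113 among members against 0.249 among all genes, and 5 members changed by more than 0.5 on the log2 scale, or 4.72%, against 28.0% of all genes. Of the 36 called members, 22 kept their call with each mouse left out in turn and under every other setting in which they were tested, and these were 14 that were higher and 8 that were lower. The number called higher fell from 23 to 15 without C57BL/6 mouse 1, C57BL/6 mouse 2 or B6.SLE123 mouse 1, and the number called lower fell from 13 to 8 without C57BL/6 mouse 3.

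Called genes are given by complex, beside the 26.7% of all genes called higher and the 26.6% called lower. In complex V 10 of 17 nuclear genes were called, or 58.8%, all of them higher. Complex III had 2 of 8 higher and complex II 2 of 8 lower, each 25.0% and so near the shares of all genes. Complex I was divided, with 7 of 46 higher and 7 lower, and complex IV had 4 of 14 higher and 2 lower. Of the 13 mitochondrial genes 2 were called, both lower, or 15.4%, which is below the share of all genes. The median log2 fold change was 0.14 for nuclear genes of complex V, 0.11 for complex III, 0.09 for complex IV, 0.02 for complex I and -0.05 for complex II. It was -0.10 for the mitochondrial members and -0.002 for all genes. These differences between complexes were not tested.

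**Figure D1:**
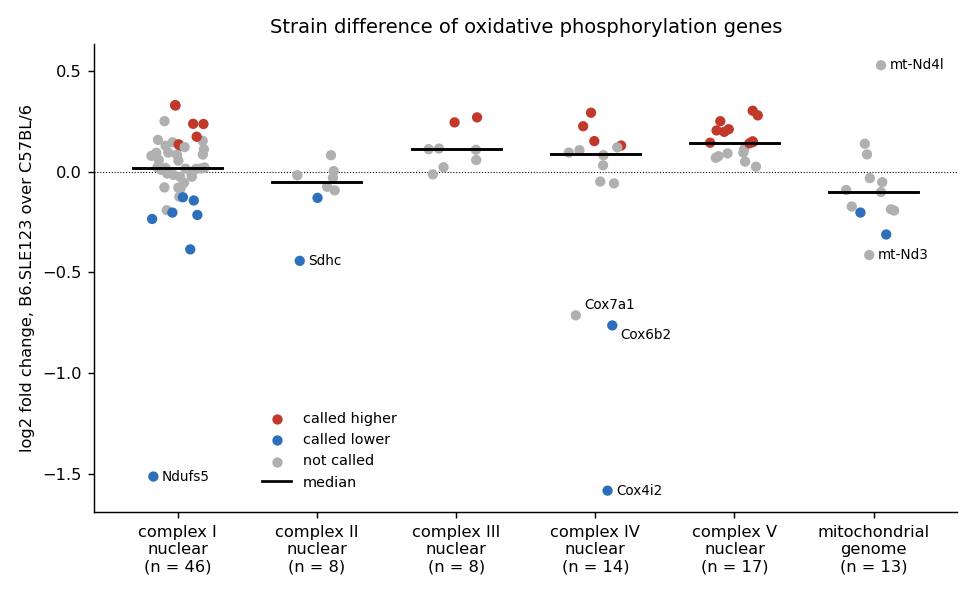
Log2 fold change of each member, B6.SLE123 over C57BL/6, by complex for nuclear genes and together for the 13 mitochondrial genes. Points are genes, coloured by call (adjusted p below 0.05, edgeR), and bars are medians. Most points lie close to 0, all 17 complex V genes lie above it, and Ndufs5 and Cox4i2 lie below -1.5.

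The mitochondrial genome encodes 7 subunits of complex I, 1 of complex III, 3 of complex IV and 2 of complex V. Its genes fell into 2 groups by level. Per kilobase of exon, mt-Co1, the catalytic subunit of cytochrome c oxidase, stood at 3120 CPM in C57BL/6 mice and 3050 in B6.SLE123 mice, and mt-Cytb, the cytochrome b of complex III, at 1530 and 1470. mt-Nd1, mt-Nd2, mt-Nd4, mt-Nd5 and mt-Nd6 followed with strain means between 402 and 1060. The other 6 genes were listed at 1.3 to 11.3 CPM per kilobase in C57BL/6 mice. These were mt-Co2 and mt-Co3 of complex IV, mt-Atp6 and mt-Atp8 of complex V, and mt-Nd3 and mt-Nd4l of complex I. All of these genes lie in the stretch from mt-Co2 to mt-Nd4l.

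In GENCODE M21 the same stretch has a near-identical nuclear copy, annotated as 7 pseudogenes at chr1:24611535-24616197 (GRCm38). Transcripts of mt-Co2, mt-Co3, mt-Atp6, mt-Nd3 and mt-Nd4l had a copy with at least 99% identity over 99.6%, 99.9%, 99.6%, 99.1% and 99% of their bases. mt-Atp8 has no annotated copy of its own and lies between mt-Co2 and mt-Atp6. For mt-Nd4 the identical part covered 876 bases, or 63.6%, and for mt-Co1 the near-identical part covered 483 bases, or 31.3%. Copies of mt-Nd2, mt-Nd5, mt-Nd6 and mt-Cytb were less alike, with identities of 96.7%, 92.4%, 93.6% and 92.9%, and mt-Nd1 had none at 90% or more. The first 60 bases of mt-Co2 and of its copy Gm28661 are shown since they hold no difference by which a read could be placed. A stretch of mt-Nd2 and of its copy Gm13339 is shown for contrast, with the bases that differ in capitals.

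mt-Co2: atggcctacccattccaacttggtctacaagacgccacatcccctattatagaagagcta
Gm28661: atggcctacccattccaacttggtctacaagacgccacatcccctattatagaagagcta
mt-Nd2: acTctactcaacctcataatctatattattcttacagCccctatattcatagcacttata
Gm13339: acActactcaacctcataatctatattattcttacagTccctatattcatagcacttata

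The mt-Co2 bases lie at chrM:7013-7072 and those of Gm28661 at chr1:24615506-24615565, and the 60 bases do not differ. The mt-Nd2 bases lie at chrM:4514-4573 and those of Gm13339 at chr2:22590402-22590461, and 2 of the 60 bases differ. All 4 are coding or pseudogene bases from the GENCODE transcripts. The pseudogenes are not protein coding and have no values here. The methods do not state how reads with several equally good positions were counted, and the part of the copy in the low values was not tested. Levels of these 6 genes are therefore uncertain, and they are given here as listed. The same holds for the copied parts of mt-Nd4 and mt-Co1.

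**Figure D2:**
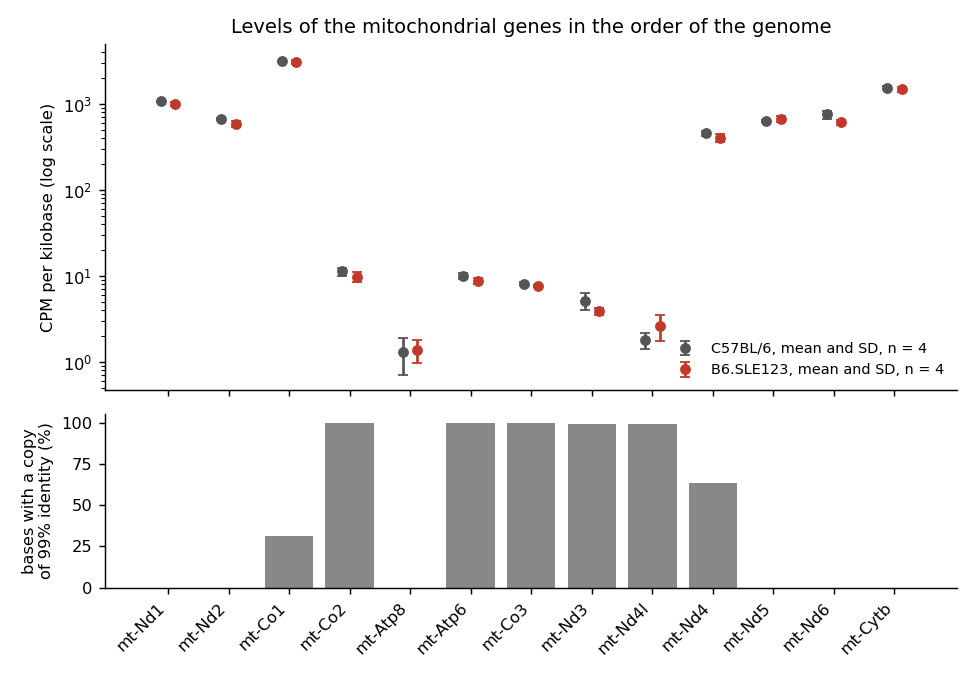
Upper panel, level of each mitochondrial gene in CPM per kilobase of exon on a log scale, with the mean and SD of 4 mice of each strain, in the order of the mitochondrial genome. Lower panel, percent of the bases of the transcript that have a copy of at least 99% identity elsewhere in the annotation. The 6 genes from mt-Co2 to mt-Nd4l sit between 1.3 and 11.3 in C57BL/6 mice, and the other 7 at 402 or more in both strains.

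mt-Nd6, a complex I subunit and the single member encoded on the other strand of mitochondrial DNA, was lower in B6.SLE123 mice. Its values were 359, 368, 383 and 450 CPM in the C57BL/6 mice and 326, 304, 290 and 337 CPM in the B6.SLE123 mice. Every B6.SLE123 mouse lay below every C57BL/6 mouse, with a log2 fold change of -0.31 ± 0.07 (SE, n = 4 per strain, adjusted p = 0.00457, edgeR's quasi-likelihood test). Of the bases of mt-Nd6, 2.7% overlap mt-Nd5 on the opposite strand. The strand setting of the counting is not given, so whether its counts include reads from the opposite strand was not tested. mt-Nd2, a further complex I subunit, was lower as well. Its values were 678, 683, 701 and 719 CPM in the C57BL/6 mice and 644, 569, 566 and 636 CPM in the B6.SLE123 mice. The strains did not overlap, and the log2 fold change was -0.20 ± 0.05 (SE, adjusted p = 0.00777, edgeR).

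The remaining abundant mitochondrial genes did not pass the test. mt-Co1 made up between 45.6% and 47.5% of the mitochondrial counts as listed in a mouse, to which the 6 genes at low values added little. It was at 4810, 4740, 4830 and 4920 CPM in the C57BL/6 mice and at 5050, 4550, 4420 and 4870 CPM in the B6.SLE123 mice. Its ranges overlapped, with a log2 fold change of -0.03 ± 0.05 (SE). mt-Cytb had a log2 fold change of -0.05 ± 0.06 (SE), mt-Nd1 -0.09 ± 0.05, mt-Nd4 -0.17 ± 0.07 and mt-Nd5 0.09 ± 0.06. The value for mt-Nd1 passed the threshold without B6.SLE123 mouse 1 (adjusted p = 0.0317, edgeR). The value for mt-Nd4 passed in 3 of the alternatives, among them those without B6.SLE123 mouse 1 or 4 (adjusted p = 0.0354 and 0.0352, edgeR). Overlap of the strains was seen for mt-Nd1, mt-Nd4, mt-Nd5 and mt-Cytb.

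Among the 6 genes listed at low values none was called. mt-Co2 was between 6.95 and 8.41 CPM in C57BL/6 mice and between 6.15 and 8.07 in B6.SLE123 mice. mt-Co3 was between 6.22 and 6.85 CPM in C57BL/6 mice and between 5.79 and 6.21 in B6.SLE123 mice, which did not overlap, although its log2 fold change of -0.10 ± 0.08 (SE) did not pass. mt-Atp6 was between 6.07 and 7.41 CPM and between 5.39 and 6.42 CPM in the same order. The other 3 genes, mt-Nd3, mt-Nd4l and mt-Atp8, rested on at most 68, 33 and 14 counts in any mouse. Their log2 fold changes were -0.41 ± 0.19, 0.53 ± 0.30 and 0.14 ± 0.39 (SE), which at this depth did not separate the strains. mt-Co2 and mt-Nd3 passed the threshold when B6.SLE123 mouse 1 (adjusted p = 0.0404, edgeR) and C57BL/6 mouse 2 (adjusted p = 0.03, edgeR) were left out.

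The 2 genomes were then compared within each mouse, where scaling between libraries plays no part. Mitochondrial members took 1.04%, 1.04%, 1.03% and 1.08% of the counts in the C57BL/6 mice and 1.08%, 0.953%, 0.943% and 1.04% in the B6.SLE123 mice. These ranges overlapped, with means of 1.05% ± 0.0187 and 1.0% ± 0.0656 (SD, n = 4). The 6 genes at low values together held between 19.9 and 24.6 CPM in a mouse. Mitochondrial sums and their ratios therefore rest almost wholly on the other 7 genes. Nuclear members took 0.561%, 0.572%, 0.584% and 0.597% of the counts in the C57BL/6 mice and 0.643%, 0.607%, 0.597% and 0.603% in the B6.SLE123 mice, so that the strains met at 0.597%.

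The ratio of the 2 sums separated the strains. Counts of mitochondrial members were 1.86, 1.82, 1.77 and 1.80 times those of nuclear members in the C57BL/6 mice and 1.67, 1.57, 1.58 and 1.73 times in the B6.SLE123 mice. Every B6.SLE123 mouse lay below every C57BL/6 mouse. On the log2 scale the mean fell from 0.857 ± 0.029 to 0.711 ± 0.0668 (SD, n = 4), a difference of -0.146. No p is given for a sum over chosen members. The difference was -0.366 when the median log2 CPM of each genome was used in place of the sum. With 6 of the 13 mitochondrial genes at low values, that median is mt-Nd6 in every mouse, so the larger value follows that gene and not the genome as a whole. The sums in turn follow abundant genes. Of the nuclear sums, that of complex V differed by 272 CPM between the strain means. Those of complexes I to IV differed by 10.6, -42.8, 48.6 and 74.6 CPM.

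**Figure D3:**
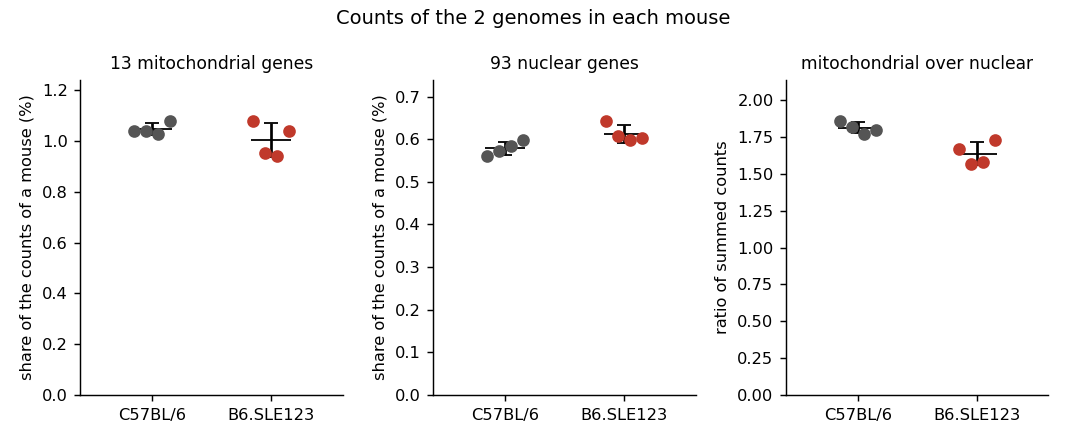
Share of all counts of a mouse taken by the 13 mitochondrial and the 93 nuclear members, in percent, and the ratio of the 2 sums. Points are mice, and bars are the mean and SD of 4 mice. The shares overlap between the strains, whereas the ratio is 1.77 or more in C57BL/6 mice and 1.73 or less in B6.SLE123 mice.

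In complex I, the entry point for electrons from NADH, Ndufs5 had the largest fall. Ndufs5 encodes an accessory subunit on the side of the intermembrane space. Its values were 17, 16.9, 19.2 and 19.7 CPM in the C57BL/6 mice and 6.58, 6.45, 6.81 and 5.55 CPM in the B6.SLE123 mice. The strains were far apart relative to the spread within them, with means of 18.2 ± 1.44 and 6.35 ± 0.551 CPM (SD). The log2 fold change was -1.52 ± 0.09 (SE, adjusted p = 4.28e-07, edgeR), a level 2.86-fold lower in B6.SLE123 mice.

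Ndufs5 lies at chr4:123712710-123718202 (mm10) on the minus strand, and chromosome 4 carries the Sle2 interval. No other gene within 1 Mb shared its direction at the threshold. Of the 17 others in the table there, 8 were called higher and 0 lower, with a median log2 fold change of 0.18. Its exons share no bases with another annotated gene. However, 319 bases of its transcript of 680 match the processed pseudogene BC002163 at chr16:42955631-42955949 with 2 mismatches. The 60 bases that hold both mismatches are shown, from base 299 of the Ndufs5 transcript, since reads of this stretch differ between the gene and the copy only at the bases in capitals.

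Ndufs5: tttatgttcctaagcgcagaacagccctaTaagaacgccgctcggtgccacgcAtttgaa
BC002163: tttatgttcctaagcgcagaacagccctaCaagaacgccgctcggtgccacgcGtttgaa

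BC002163 is not protein coding and has no value here, so it was not measured whether counts of the copy differ between the strains.

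Nuclear core subunits of complex I carry its flavin and iron-sulfur centres, and they did not move together. Ndufs7, an iron-sulfur subunit next to the ubiquinone site, was at 38.2, 36.0, 41.0 and 39.9 CPM in the C57BL/6 mice and at 33.2, 33.8, 32.8 and 33.8 CPM in the B6.SLE123 mice. All B6.SLE123 values lay below the C57BL/6 values, with a log2 fold change of -0.22 ± 0.05 (SE, adjusted p = 0.00393, edgeR).

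Ndufs8, a further iron-sulfur subunit, was lower by less, from a mean of 57 ± 1.24 to 52.2 ± 2.47 CPM (SD, log2 fold change -0.13, adjusted p = 0.0345, edgeR). Its call was lost in 4 of the 8 fits that each leave out a mouse, with C57BL/6 mouse 1 or 3 or B6.SLE123 mouse 2 or 3 left out, where adjusted p reached 0.104 in edgeR. Ndufv2, an iron-sulfur subunit of the NADH-oxidising module, moved the other way. Its values were 61.6, 61.5, 60.3 and 68.4 CPM in the C57BL/6 mice and 72.9, 71.0, 71.2 and 68.9 CPM in the B6.SLE123 mice. The highest C57BL/6 mouse came close to the lowest B6.SLE123 mouse but did not cross it (log2 fold change 0.17 ± 0.05 (SE), adjusted p = 0.0103, edgeR). Ndufv1, the flavin subunit of the same module, had a log2 fold change of -0.08 ± 0.04 (SE) and Ndufs1 one of 0.02 ± 0.04, and neither passed.

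Accessory subunits of complex I were mixed. Ndufs4, a subunit that stabilises the NADH-oxidising module, was at 29.9, 27.5, 33.4 and 34.7 CPM in the C57BL/6 mice and at 44.7, 40.7, 36.2 and 36.3 CPM in the B6.SLE123 mice. The strains did not overlap (log2 fold change 0.33 ± 0.09 (SE), adjusted p = 0.00858, edgeR). Ndufb11, Ndufc1, Ndufb7 and Ndufa8 were also called higher, with log2 fold changes of 0.24, 0.24, 0.14 and 0.13, whereas Ndufb2 and Ndufab1, the mitochondrial acyl carrier protein, were called lower at -0.39 and -0.14. With a mouse left out, the calls of Ndufb2, Ndufa8, Ndufb7 and Ndufab1 were lost in 6, 6, 5 and 4 of 8 fits, those of Ndufb11 and Ndufc1 in none. By family, 1 of 14 Ndufa subunits was higher and 1 lower, and 2 of 11 Ndufb subunits were higher and 1 lower.

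Among the assembly factors in the list, Ndufaf2 was called higher (log2 fold change 0.33) and Ndufaf4 lower (-0.20), both among 13 such genes. Each call was lost in 6 of the 8 fits that leave out a mouse. The values of Ndufaf2 are further uncertain because 65.6% of its exonic bases overlap a gene on the opposite strand, B230220B15Rik, and the strand setting of the counting is not given.

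In complex II, the succinate dehydrogenase that also serves the citrate cycle, Sdhc was lower. Sdhc anchors the enzyme in the membrane. It was at 69.3, 69.8, 73.8 and 76.3 CPM in the C57BL/6 mice and at 57.1, 49.9, 51.8 and 54.0 CPM in the B6.SLE123 mice. No value of one strain reached those of the other, and the log2 fold change was -0.44 ± 0.05 (SE, adjusted p = 4.3e-05, edgeR). Sdha, the flavoprotein subunit, was at 237, 245, 265 and 263 CPM and at 233, 223, 223 and 244 CPM in the same order. Its ranges overlapped, and its log2 fold change of -0.13 ± 0.05 (SE) passed narrowly (adjusted p = 0.0485, edgeR) and lost its call in 6 of 8 fits with a mouse left out and with relative log expression factors. The iron-sulfur subunit Sdhb and the second anchor Sdhd had log2 fold changes of -0.03 ± 0.05 and 0.003 ± 0.04 (SE) and did not pass. None of the 4 assembly factors Sdhaf1 to Sdhaf4 was called.

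Sdhc lies at chr1:171127165-171150603 (mm10), on the chromosome that carries Sle1. Among 103 genes from 170 to 180 Mb of chromosome 1 that are not members, 43 were called lower, or 41.7%, and 23 higher, and 23 had a log2 fold change below -1. Within 1 Mb of Sdhc, 29 of 50 other genes were lower, with a median log2 fold change of -0.29. Exons of Sdhc share no bases with another annotated gene. Outside chromosomes 1, 4 and 7, 21 of 72 nuclear members were called higher and 5 lower, against 26.7% and 26.6% of all genes. On chromosomes 1, 4 and 7, 1 of 7, 0 of 6 and 1 of 8 members were higher, and 2 were lower on each. The part of the intervals in these calls was not tested.

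**Figure D4:**
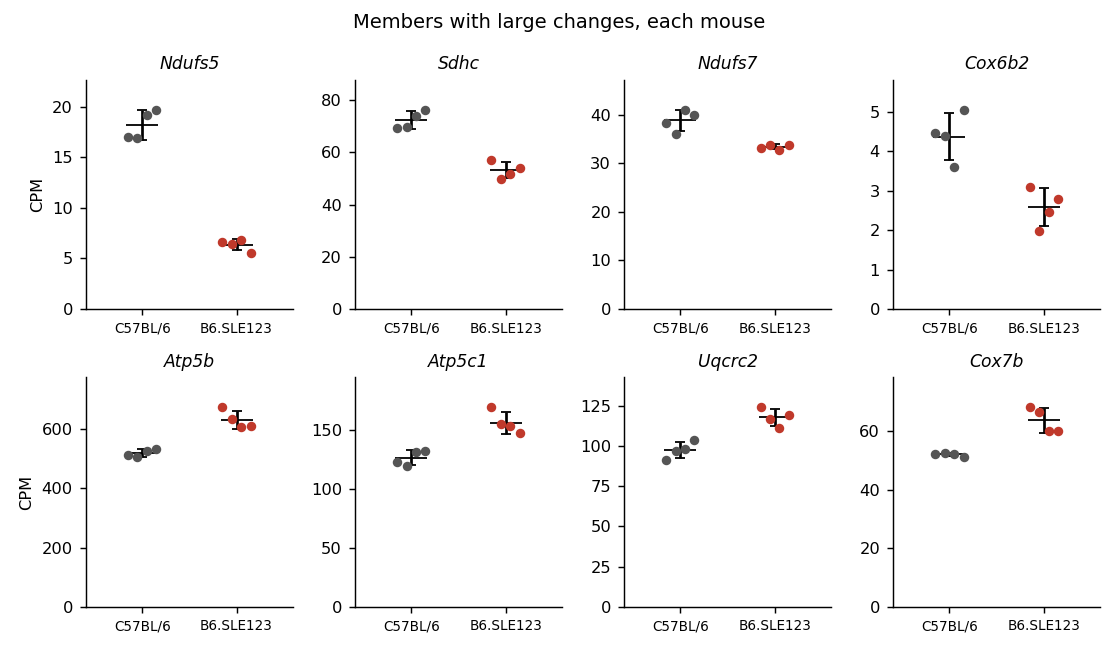
Level in CPM of 8 members in each mouse, with the mean and SD of 4 mice per strain. Each axis starts at 0. Ndufs5, Sdhc, Ndufs7 and Cox6b2 are lower and Atp5b, Atp5c1, Uqcrc2 and Cox7b are higher in every B6.SLE123 mouse than in every C57BL/6 mouse.

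Complex III, which passes electrons from ubiquinone to cytochrome c, had 2 of 8 nuclear genes called. This is 25.0%, below the 53.4% of all genes. Uqcrc2, a core protein of the matrix side, was at 91.5, 97.0, 97.8 and 104 CPM in the C57BL/6 mice and at 124, 117, 111 and 119 CPM in the B6.SLE123 mice. Uqcrfs1, the Rieske iron-sulfur protein, was at 67.0, 66.3, 72.1 and 73.3 CPM and at 86.1, 81.4, 79.5 and 83.5 CPM in the same order. Neither gene overlapped between the strains, with log2 fold changes of 0.27 ± 0.05 and 0.24 ± 0.05 (SE, adjusted p = 0.00111 and 0.00128, edgeR). Of the exonic bases of Uqcrc2, 19.7% overlap Pdzd9 on the opposite strand. Its partner core protein Uqcrc1 had a log2 fold change of 0.06 ± 0.04 (SE) and did not pass, and none of the other 5 nuclear genes passed.

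In complex IV, the cytochrome c oxidase, the abundant forms of the subunits were higher or not called. Cox7b, a small membrane subunit encoded on the X chromosome, was at 52.4, 52.6, 52.2 and 51.3 CPM in the C57BL/6 mice and at 68.2, 66.6, 60.2 and 60.1 CPM in the B6.SLE123 mice. Cox5b, a matrix-side subunit, was at 71.1, 72.5, 70.5 and 76.9 CPM and at 89.3, 85.1, 84.2 and 81.6 CPM in the same order. Both were without overlap, with log2 fold changes of 0.29 ± 0.05 and 0.23 ± 0.04 (SE, adjusted p = 0.000594 and 0.00148, edgeR). A stretch of 390 bases of Cox5b, or 45.1% of its transcript, matches the intronless gene Gm11273 at 99.2% identity, whose own log2 fold change was within its error of 0.

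Cox6c and Cox7a2 were called higher at 0.13 and 0.15 on the log2 scale. These calls were lost in 3 and 7 of 8 fits with a mouse left out. Cox4i1, the usual form of the regulatory subunit, had a log2 fold change of 0.08 ± 0.05 (SE) and Cox5a one of -0.06 ± 0.05, and neither passed.

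Genes called lower in complex IV were the minor forms of 2 subunits. Cox4i2, an alternative to Cox4i1 known from lung, was at 1.21, 0.691, 1.01 and 0.629 CPM in the C57BL/6 mice and at 0.348, 0.457, 0.237 and 0.0787 CPM in the B6.SLE123 mice. These values rested on 18 to 33 counts and on 2 to 17 counts per mouse. The log2 fold change was -1.58 ± 0.40 (SE, adjusted p = 0.00603, edgeR). Cox6b2, known from testis, was at 4.46, 4.38, 3.60 and 5.06 CPM and at 3.10, 1.99, 2.46 and 2.79 CPM in the same order, without overlap (log2 fold change -0.76 ± 0.16 (SE), adjusted p = 0.00238, edgeR). Cox6b2 lies on chromosome 7, and of 41 other genes within 1 Mb of it 18 were lower and 5 higher.

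Read per length, the minor forms made up little of each pair. Cox4i2 accounted for 0.908% ± 0.316 of the Cox4 pair in C57BL/6 mice and 0.273% ± 0.159 in B6.SLE123 mice (SD, n = 4), and Cox6b2 for 3.33% ± 0.408 and 1.95% ± 0.327 of the Cox6b pair. Cox7a1, the form of heart and skeletal muscle, made up 3.01% ± 1.12 and 1.72% ± 0.523 beside Cox7a2. It rested on 8 to 27 counts per mouse, and its own log2 fold change did not pass.

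Complex V showed the most even picture. All 17 nuclear genes had log2 fold changes above 0, and 10 were called higher, or 58.8%, against 26.7% of all genes called higher. Atp5b, the catalytic beta subunit of the F1 head, was the most abundant nuclear member by counts, at 511, 507, 527 and 532 CPM in the C57BL/6 mice and 673, 633, 606 and 611 CPM in the B6.SLE123 mice. Atp5c1, the gamma subunit that turns inside the head, was at 123, 119, 131 and 132 CPM and at 169, 155, 153 and 147 CPM in the same order. Neither overlapped between the strains. Their log2 fold changes were 0.28 ± 0.04 and 0.30 ± 0.05 (SE, adjusted p = 0.00035 and 0.000711, edgeR), rises of 1.21-fold and 1.23-fold.

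The alpha subunit Atp5a1, which pairs with Atp5b in the head, was at 466, 474, 496 and 498 CPM in the C57BL/6 mice and at 552, 506, 506 and 525 CPM in the B6.SLE123 mice. Its strains did not overlap, but its log2 fold change of 0.11 ± 0.04 (SE) fell short of the threshold (adjusted p = 0.0539, edgeR). It passed in DESeq2 (adjusted p = 0.0378) and in limma-voom (adjusted p = 0.0477). The remaining head subunits Atp5d and Atp5e had log2 fold changes of 0.03 ± 0.05 and 0.10 ± 0.05 (SE) and did not pass.

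All 4 genes of the peripheral stalk, which holds the head in place, were called higher without overlap. These were Atp5pb, Atp5o, Atp5h and Atp5j, with log2 fold changes of 0.21, 0.21, 0.15 and 0.14. Of all genes, 26.7% were called higher and 48.9% did not overlap. The call of Atp5j was lost in 6 of 8 fits with a mouse left out, those of the other 3 in none. Of the exonic bases of Atp5o, 18.1% and 17.5% overlap Gm15976 and D430001F17Rik on the opposite strand. A second gene named Atp5o shares 12.3% of them on the same strand. Of the rotor ring, whose subunit c is encoded by 3 genes with the same mature protein, Atp5g1 was higher at 0.25 ± 0.05 (SE, adjusted p = 0.00194, edgeR). Atp5g2 was higher at 0.14 ± 0.05, a call lost in 5 of 8 fits with a mouse left out, and Atp5g3 at 0.08 ± 0.06 did not pass. Per length, Atp5g1 made up 7.29% ± 0.401 of the 3 genes in C57BL/6 mice and 7.99% ± 0.356 in B6.SLE123 mice (SD, n = 4), while Atp5g2 and Atp5g3 each made up between 42.7% and 49.6% in every mouse. Of 5 further membrane subunits, Atp5j2 and Atp5md were called higher, each lost in 5 of 8 fits with a mouse left out.

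**Figure D5:**
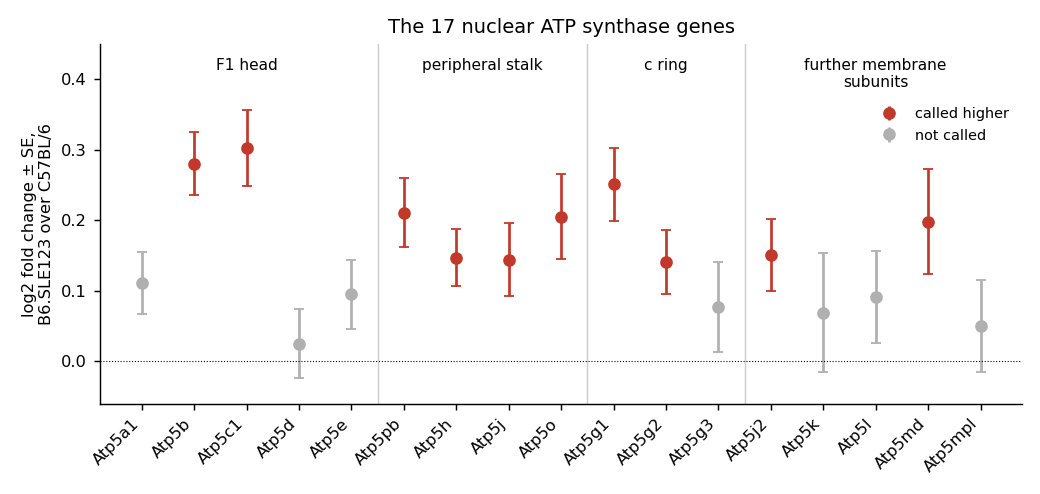
Log2 fold change with its SE for the 17 nuclear genes of ATP synthase, B6.SLE123 over C57BL/6, grouped by their place in the enzyme. Red points were called higher (adjusted p below 0.05, edgeR). All 17 points lie above 0, and all 4 stalk genes are called.

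Summed over the nuclear genes of a complex, the level of complex V was between 2010 and 2130 CPM in C57BL/6 mice and between 2260 and 2490 CPM in B6.SLE123 mice. That of complex III was between 504 and 539 CPM and between 547 and 606 CPM in the same order. Complex II went the other way, from between 511 and 550 CPM to between 471 and 507 CPM. In these 3 complexes the strains did not overlap, whereas complex I, at 1540 to 1670 CPM and 1570 to 1680 CPM, and complex IV, at 1010 to 1110 CPM and 1090 to 1180 CPM, overlapped. Sums follow the abundant genes, and Sdha alone held 252 of 531 CPM of complex II in C57BL/6 mice. With each gene weighted equally on the log2 scale, complexes III and V still did not overlap, but complex II did. For complex IV the strain difference of that mean was -0.124, opposite to its sum, with overlap. Its lowest log2 fold changes were those of the minor forms Cox4i2, Cox6b2 and Cox7a1, at -1.585, -0.764 and -0.714. In the same complex 9 of 14 genes were above 0, with a median of 0.088.

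Promoters of the nuclear members were read from RefSeq (GRCm38.p6), over 250 bases before and 50 bases after the start, for 78 of the 93 genes. Motifs of factors known for respiratory genes were searched on both strands. The letters GCGCATGCG, for NRF1, were found in 10 of the 78 promoters, or 12.8%, against 3.5% of 10906 promoters of genes in the table. AAGATGGC, for YY1, was found in 10, or 12.8%, against 4.4%. CCGGAAG, for the ETS family that includes GABP, was found in 21, or 26.9%, against 17.5%, and CCAAT in 34, or 43.6%, against 38.8%. Beside the 26.7% of all genes called higher, no test was made of the calls by motif. Of the 10 members with the NRF1 letters, 2 were called higher and 1 lower, against 19 higher and 7 lower of the 68 without them. With the YY1 letters 4 of 10 were higher and 1 lower, against 17 and 7 of 68 without. With the ETS letters 3 of 21 were higher and 1 lower, against 18 and 7 of 57 without. With CCAAT 9 of 34 were higher and 4 lower, against 12 and 4 of 44 without.

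Upstream sequences are shown for Ndufs5, the largest fall of complex I, and for Atp5b and Atp5c1, the largest rises of complex V. Only bases of the named gene itself are left out, so the bases shown may hold exons of a neighbouring gene. Capitals mark CCAAT or its reverse ATTGG, and whether the marked letters lie in such exons was not examined.

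Ndufs5: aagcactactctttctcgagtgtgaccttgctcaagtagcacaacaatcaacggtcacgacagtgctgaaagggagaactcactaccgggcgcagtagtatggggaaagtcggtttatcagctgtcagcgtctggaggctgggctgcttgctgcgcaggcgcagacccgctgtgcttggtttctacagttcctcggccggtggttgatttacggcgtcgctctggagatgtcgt
Atp5b: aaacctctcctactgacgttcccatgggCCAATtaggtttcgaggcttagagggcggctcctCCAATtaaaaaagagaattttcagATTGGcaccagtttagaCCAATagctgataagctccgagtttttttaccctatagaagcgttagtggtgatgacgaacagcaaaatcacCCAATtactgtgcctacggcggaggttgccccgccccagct
Atp5c1: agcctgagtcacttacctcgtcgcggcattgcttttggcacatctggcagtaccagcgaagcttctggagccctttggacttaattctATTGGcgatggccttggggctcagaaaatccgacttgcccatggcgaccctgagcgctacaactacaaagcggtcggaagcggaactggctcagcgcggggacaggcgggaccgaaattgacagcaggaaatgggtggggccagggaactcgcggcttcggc

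These lie at chr4:123718203-123718436 on the minus strand, chr10:128083057-128083272 on the plus strand and chr2:10080511-10080760 on the minus strand. Atp5b holds 5 matches to CCAAT, Atp5c1 holds 1 and Ndufs5 none in the bases shown. None of the 3 holds the letters searched for NRF1, YY1 or ETS factors here.

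Genes around the chain were examined as fixed lists, each read against the 26.7% of all genes called higher and the 26.6% called lower. Among 20 electron carriers, associated enzymes and remaining chain subunits, 3 were higher and 4 lower. Cycs, cytochrome c, rose by 0.53 ± 0.07 and Gpd2, the glycerol phosphate dehydrogenase that feeds ubiquinone, by 0.52 ± 0.04 (log2 fold change, SE), whereas Coq10a was lower at -0.56 ± 0.06 and Coq8b, of ubiquinone synthesis, at -0.29 ± 0.08. Of 40 further assembly factors 4 were higher, among them Coa5 (0.31) and Atpif1, the inhibitor of ATP synthase (0.30), and 6 were lower, among them Nubpl (-0.33), which delivers iron-sulfur clusters to complex I, and Surf1 (-0.22), which assembles complex IV.

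For the genes that serve mitochondrial DNA itself, no rise was called. Of 17 genes of its replication and transcription, 7 were lower and 0 higher, with a median log2 fold change of -0.14. Polg2, the accessory subunit of the mitochondrial DNA polymerase, went from 18 ± 1.68 to 12.9 ± 1.39 CPM (SD, n = 4), a log2 fold change of -0.48 ± 0.09 (SE). Mterf3, which represses mitochondrial transcription, went from 34.0 ± 2.45 to 24.5 ± 1.12 CPM, a log2 fold change of -0.47 ± 0.06. Among 20 genes of mitochondrial RNA processing, 3 were higher, led by Ptcd2 (0.31) and Elac2 (0.20), and 4 were lower, led by Fastkd1 (-0.36) and Pnpt1 (-0.32). Of 77 mitochondrial ribosomal proteins 16 were higher, led by Mrps11 (0.62) and Mrps27 (0.34), and 3 were lower, including Mrpl24 (-0.21) and Mrps17 (-0.18).

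The citrate cycle and pyruvate dehydrogenase, which supply the chain with electrons, had 8 of 21 genes higher and 6 lower. Fh1, fumarase, went from 74.6 ± 5.76 to 125 ± 8.02 CPM (SD, n = 4), a log2 fold change of 0.75 ± 0.06 (SE), and lies on chromosome 1. Idh3a, of isocitrate dehydrogenase, rose by 0.35 ± 0.05 on the log2 scale. Pdk1 and Pdk2, kinases that inhibit pyruvate dehydrogenase, were lower at -1.27 ± 0.06 and -0.53 ± 0.09, whereas Pdk3 of the same list was higher at 0.20 ± 0.04. In the outer membrane, import and cristae list 7 of 21 genes were higher and 0 lower, led by Slc25a4, which exchanges ATP for ADP (0.28), and the channel Vdac2 (0.28).

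Of 10 transcription factors and coactivators of respiratory genes, 4 were higher and 3 lower. Ppargc1b, a coactivator of mitochondrial biogenesis, went from 8.65 ± 1.38 to 1.98 ± 0.711 CPM (SD, n = 4), a log2 fold change of -2.13 ± 0.23 (SE, adjusted p = 1.86e-05, edgeR). Myc was lower at -0.38 ± 0.08, while Hcfc1, a cofactor of transcription, and Yy1 were higher at 0.33 ± 0.05 and 0.21 ± 0.05.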

How the data were processed

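CD11c-positive splenocytes of 8 mice were sequenced as stranded mRNA libraries. Read trimming (cutadapt), alignment to mm10 (STAR) and counting (featureCounts) were done by the authors, who deposited raw counts per protein-coding gene and mouse, without normalization. Versions, the strand setting and the handling of multiply mapping reads are not given in the sources used here. The deposited table also holds the authors' DESeq2 comparison, which was not used. Symbols turned into dates were restored for 21 genes.

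TMM factors were applied and strains compared in edgeR 4.0.16 under R 4.3.3 (quasi-likelihood F test without covariates or further filter) with Benjamini-Hochberg adjustment over 13786 genes. CPM values use TMM-scaled library sizes. Levels per kilobase use the summed exon length in GENCODE M21, which shares coordinates with 13663 genes of the table. Copies were sought with blastn 2.17.0 among GENCODE transcripts at 90% identity or more. The analysis was tested on simulated data. Mice of a strain differed by more than sampling noise (chi-square per degree of freedom between 4.87 and 18.3), so each counted as 1 replicate. The labels do not say more about how the mice were kept, so p-values measure the spread between these mice.

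Members and lists were chosen with earlier results of these data known. Genes were named by a rule: all mitochondrial members, Sdha to Sdhd, core subunits, Atpif1, the 2 largest called changes in each direction per complex and per further list, called members changed by more than 1 on the log2 scale, members at 170 to 180 Mb of chromosome 1, and called members on chromosomes 4 and 7. Further called members were named after their values were seen, so that each complex is complete. So were Cox7a1, Atp5d, Atp5e, Pdk3 and the marker lists, for context. Marker lists that the report does not describe were those of marginal zone macrophages (0 of 3 higher, 3 lower), B cells (0 of 8, 7), plasma cells (2 of 6, 2), T cells (1 of 8, 1), NK cells (0 of 7, 1), neutrophils (3 of 7, 1), monocytes (0 of 6, 2), type 2 conventional dendritic cells (0 of 7, 3) and plasmacytoid dendritic cells (1 of 7, 2). Alternatives were relative log expression factors, library totals alone, scaling without mitochondrial genes, DESeq2 1.42.0, limma-voom (limma 3.58.1), a block for the replicate number, a minimum of 10 counts per sample, subunits only, and each mouse left out. Other experiments of the study were not used here. A gene that the naming rule covers is not reported here.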

Additional observations from a re-analysis of the deposited data

Results flagged for a closer look

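Among 96 strain groups of 4 mice examined, covering the named members and the per-mouse sums, 5 held a mouse that stood apart from the other 3, and chance gives about 1 in 20. Ndufs1 was at 59.5 CPM in B6.SLE123 mouse 3, below a median of 64.1 CPM, and Ndufv2 was at 68.4 CPM in C57BL/6 mouse 4, above a median of 61.5 CPM. Sdhd was at 71.7 CPM in C57BL/6 mouse 4 against a median of 71.1 CPM, in a group with little spread. mt-Atp8 was at 0.414 CPM in B6.SLE123 mouse 3 against a median of 0.248 CPM, which rests on 14 counts. mt-Co3 was at 6.85 CPM in C57BL/6 mouse 1 against a median of 6.27 CPM. The causes were not tested.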

How the results depend on the processing

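The number of called members was 36, and between 34 and 36 under other scaling, the count minimum, DESeq2, limma-voom and subunits only. With each mouse left out it was between 26 and 31, with 15 to 21 higher and 8 to 13 lower. The count of 15 higher came without C57BL/6 mouse 1, C57BL/6 mouse 2 or B6.SLE123 mouse 1, and that of 8 lower without C57BL/6 mouse 3. The labels do not say whether the replicate numbers pair the mice. Same-numbered mice correlated at 0.0238, 0.0707, -0.0288 and 0.115, and other pairs at between -0.0972 and 0.0907, which cannot decide it. With the number as a block 28 members were called, 27 of them shared with the 36. The log2 ratio of mitochondrial to nuclear counts differed by between -0.173 and -0.126 with each mouse left out, and by -0.366 as a difference of medians, where the mitochondrial median is mt-Nd6, a gene called lower, in every mouse. The mitochondrial share differed by between -0.0683 and -0.0243 percentage points. Without the 6 members inside the chromosome 1 copy, an alternative chosen after seeing the data, it differed by -0.0441 points, and the median log2 fold change of the mitochondrial members was -0.091. Medians by complex with each mouse left out ranged from 0.121 to 0.163 for V, 0.064 to 0.131 for III, 0.066 to 0.106 for IV, -0.004 to 0.045 for I and -0.088 to -0.018 for II. Signs turned for 4 members whose changes did not pass. Sdhd became -0.004 with library totals only and -0.01 with at least 10 counts in every sample, and with a mouse left out the values ran from -0.014 to 0.021 for Sdhd, -0.006 to 0.043 for Ndufs1, -0.065 to 0.001 for Sdhb and -0.098 to 0.431 for mt-Atp8. Cox4i2 was not tested under the count minimum. Depth limits mt-Nd3, mt-Nd4l, mt-Atp8, Cox4i2 and Cox7a1, which rest on fewer than 70 counts per mouse.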

Other observations

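Annotated genes that match the naming but have no row in the table used here are Cox7b2, Cox8b, Cox8c, Ndufa4l2 and a second annotated gene named Atp5o, so they were not analysed here. Of the members, 45 share exonic bases with another annotated gene. Among nuclear members besides Ndufs5 and Cox5b, copies of at least 99% identity cover the largest shares of the transcript in Atp5l (57.4%), Ndufb4 (40.2%), Ndufa12 (36.2%) and Cox7c (32.9%). None of these 4 was called. Called members have such copies over smaller shares, among them 471 bases of Ndufab1 (13.5%) and 411 bases of Atp5g1 (8.7%). At lower identity, copies match 643 bases of Atp5o (97.0%) and 696 bases of Atp5pb (98.7%), both called higher. mt-Co1 made up 46.2% ± 0.448 of the mitochondrial counts as listed in C57BL/6 mice and 46.9% ± 0.481 in B6.SLE123 mice (SD, n = 4), and these ranges overlapped.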
